A study of Homo sapiens with 12 samples.

Results

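The S100 genes encode small calcium-binding proteins that act as dimers, and 10 of them were followed through ribosome fractions of mammary epithelial cells: S100A2, S100A4, S100A6, S100A8, S100A9, S100A10, S100A11, S100A13, S100A14 and S100A16. They are 10 of the 56632 genes in the deposited tables. The 10 genes were chosen by name as the S100 genes of epithelium and chosen on their measured level, since S100A2 was already known to be the most abundant gene in several of these libraries. Their levels are therefore given as a description, and tests are kept to differences between fractions and genotypes. S100A2 was the most abundant gene in the poly libraries and not in the free libraries. Its tests between fractions thus draw on values behind the choice and are not independent of it.

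The libraries come from MCF10A, an immortalised line of human breast epithelium, either wild type (WT) or with CBFB knocked out by CRISPR-Cas9 (CBFB_KO). The study describes the parent line as non-tumorigenic and reports that CBFB_KO cells became transformed in culture and formed tumours in immunocompromised mice. CBFB is the partner protein of the RUNX transcription factors, and the study asked how its loss changes the loading of mRNA onto ribosomes. All cells, below passage 20, received cycloheximide at 100 µg/ml for 30 min, which holds ribosomes on the mRNA, and were harvested with trypsin before their lysates were run on 10 to 50% sucrose gradients. RNA of the ribosome-free fraction (free), the single-ribosome fraction (mono) and the polyribosome fraction (poly) was then sequenced, giving 6 conditions with n = 2 and 12 libraries. The study's methods describe knockout lines grown from single-cell colonies and do not say which colony these libraries used, so the effect of 1 clone and that of CBFB cannot be told apart. The labels number 2 replicates per condition and do not say whether they were separate cultures, so p-values measure only the spread between these samples, which may be technical.

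S100 proteins change shape when calcium binds to their paired EF hands, and most then expose a surface that grips a target protein. S100A10 and S100A11 bind annexins at membranes, S100A8 and S100A9 pair to form calprotectin, which sequesters zinc and manganese, and S100A2 and S100A6 are abundant in basal epithelium. Most of the family sits in 1 cluster on chromosome 1. The short coding regions leave room for few ribosomes on each mRNA, so the fraction in which such an mRNA sediments has a low ceiling.

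In the GENCODE annotation of GRCh38, all 10 genes are protein-coding genes on chromosome 1, between 151982915 (S100A10) and 153631360 (S100A13), and S100A9 alone lies on the plus strand. The chosen transcripts carry 3 or 4 exons and between 90 codons (S100A6) and 114 codons (S100A9). The deposited tables were made on hg19, so these positions describe the genes and were not used to count reads. The 30 bases around the annotated start codon are shown for the 4 members on which the results below turn, because the start site is where a ribosome joins the mRNA. The start codon is in capitals, after 9 bases of leader.
S100A2: agatccatgATGtgcagttctctggagcag
S100A8: gtgggcatcATGttgaccgagctggagaaa
S100A10: cacaccaaaATGccatctcaaatggaacac
S100A11: agctccaacATGgcaaaaatctccagccct
S100A8 and S100A11 gave the most negative and the most positive change between genotypes, S100A9 is the calprotectin partner of S100A8, and CBFB acts with RUNX factors on DNA, so the 250 bases before their start sites are given from RefSeq (GRCh38.p14). The RUNX core motif was searched as TGTGGT, or ACCACA on the other strand, in the 300 bases from 250 before to 50 after each start, and any match is in capitals. The windows are chr1:153391074-153391323 on the minus strand for S100A8, chr1:153357604-153357853 on the plus strand for S100A9 and chr1:152037005-152037254 on the minus strand for S100A11.
S100A8: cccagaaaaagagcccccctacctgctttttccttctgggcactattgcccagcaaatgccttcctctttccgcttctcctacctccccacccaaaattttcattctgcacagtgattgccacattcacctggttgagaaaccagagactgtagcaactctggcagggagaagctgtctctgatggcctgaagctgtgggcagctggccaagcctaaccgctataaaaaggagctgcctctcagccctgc
S100A9: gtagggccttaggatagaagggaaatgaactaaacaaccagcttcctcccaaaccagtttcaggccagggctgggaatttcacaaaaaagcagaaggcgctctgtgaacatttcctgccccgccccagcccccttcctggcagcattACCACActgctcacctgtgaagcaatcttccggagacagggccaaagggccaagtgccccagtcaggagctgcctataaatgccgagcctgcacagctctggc
S100A11: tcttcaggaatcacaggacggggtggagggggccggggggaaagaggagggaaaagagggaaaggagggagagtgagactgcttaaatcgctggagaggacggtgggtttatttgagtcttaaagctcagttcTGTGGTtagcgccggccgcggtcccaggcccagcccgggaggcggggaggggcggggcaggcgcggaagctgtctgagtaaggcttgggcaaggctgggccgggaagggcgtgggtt
None of the 3 listed S100A8 starts held a match. Over the 16 promoter windows of the 10 members, 3 held the motif (1 each of S100A2, S100A9 and S100A11), and 13.1% of all 35116 promoter windows of this length did. A match is only a run of letters and was not tested for binding.

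Before the results, 3 facts about the libraries matter for the members. Total expected counts lay between 41050300 and 63886710 per library, but mitochondrially encoded genes took 71.56% and 87.22% of the CBFB_KO free libraries, against 11.1% and 20.81% of the WT free libraries and at most 8.079% elsewhere. The CBFB_KO free libraries therefore held 13568123 and 5247853 counts on nuclear genes, and every other library held 43279838 or more. The CBFB_KO poly pair was nearly identical, with a mean chi-square per gene of 2.3 between its libraries against 128.9 to 987 in the other pairs, and the members' calls that are lost when it is counted as 1 library are named in their comparisons. CBFB mRNA was at 9.73 and 7.64 TPM in CBFB_KO free against 1.9 and 5.61 in WT free. It was at 1.73 and 0.611 in CBFB_KO mono against 2.34 and 1.5 in WT mono, where the ranges overlapped. In poly it was at 1.75 and 2.09 in CBFB_KO against 3.18 and 6.08 in WT. The log2 change was 0.49 in free, -0.71 in mono and -0.72 in poly, and edgeR called it different between genotypes in none of the 3 fractions. The study checked its knockout colonies by PCR and western blotting. Of 14 basal epithelial markers, 9 to 14 reached 1 TPM in both libraries of each condition, and the summed level of ESR1 and PGR was at most 0.794 TPM. Because each library is bulk RNA, fewer molecules per cell and fewer cells holding a transcript cannot be told apart.

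Levels are given as TPM, which divides by transcript length, rescaled to the usual TPM sum after leaving out the mitochondrially encoded genes (nuclear TPM). S100A2, known for its nuclear location and its link to p63 in basal epithelium, stood at 8201 and 9856 nuclear TPM in WT free, 23667 and 24767 in WT mono, and 28231 and 25047 in WT poly. In CBFB_KO it stood at 8118 and 5903 in free, 30157 and 30073 in mono, and 38235 and 37750 in poly. It was the first of all nuclear genes in the 4 poly libraries and in CBFB_KO mono replicate 1, in place 2 or 3 in the other mono libraries, and between places 13 and 29 in the free libraries. The free libraries were the low ones in both genotypes, with no overlap with mono or poly.

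S100A6, also called calcyclin, was the next member in both ribosomal fractions. Its nuclear TPM was 2881 and 3946 in WT free, 8096 and 8182 in WT mono and 8855 and 7867 in WT poly. In CBFB_KO it was 2017 and 1809 in free, 8982 and 8626 in mono and 9122 and 9125 in poly. The ratio of S100A6 to S100A2 in nuclear TPM lay between 0.314 and 0.4 in the WT libraries. In the CBFB_KO libraries it lay between 0.239 and 0.306, without overlap. The 10 members together took 1.22% to 1.74% of nuclear counts in the free libraries and 2.55% to 4.73% in the mono and poly libraries.

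Below those members the order of levels in WT poly was S100A14, S100A11, S100A16, S100A10, S100A13, S100A9, S100A8 and S100A4, and the ranges of neighbours in that order did not overlap. The order was less settled in WT mono, where S100A11, S100A16, S100A10 and S100A14 had mean levels from 2466 to 2553 nuclear TPM and overlapping ranges. In WT free the ranges of S100A16 and S100A6 overlapped, as did those of S100A4 and S100A8. S100A14, an epithelial member found at cell membranes, moved up in the order from mono to poly, with 2879 and 2053 nuclear TPM in WT mono and 5078 and 4241 in WT poly. S100A16, a widely expressed member, differed widely between free replicates, at 4783 and 2238 nuclear TPM in WT free and 2035 and 409.6 in CBFB_KO free. In CBFB_KO mono and poly S100A11 took the place after S100A6, at mean levels of 4276 and 6096 nuclear TPM, and S100A8 was the lowest member, at 6.14 and 5.13. S100A4, a member usually linked to motile and mesenchymal cells, never exceeded 79.94 nuclear TPM. S100A13, which helps to export FGF1 from cells, ranged from 108.3 to 781.9 nuclear TPM.

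**Figure D1:**
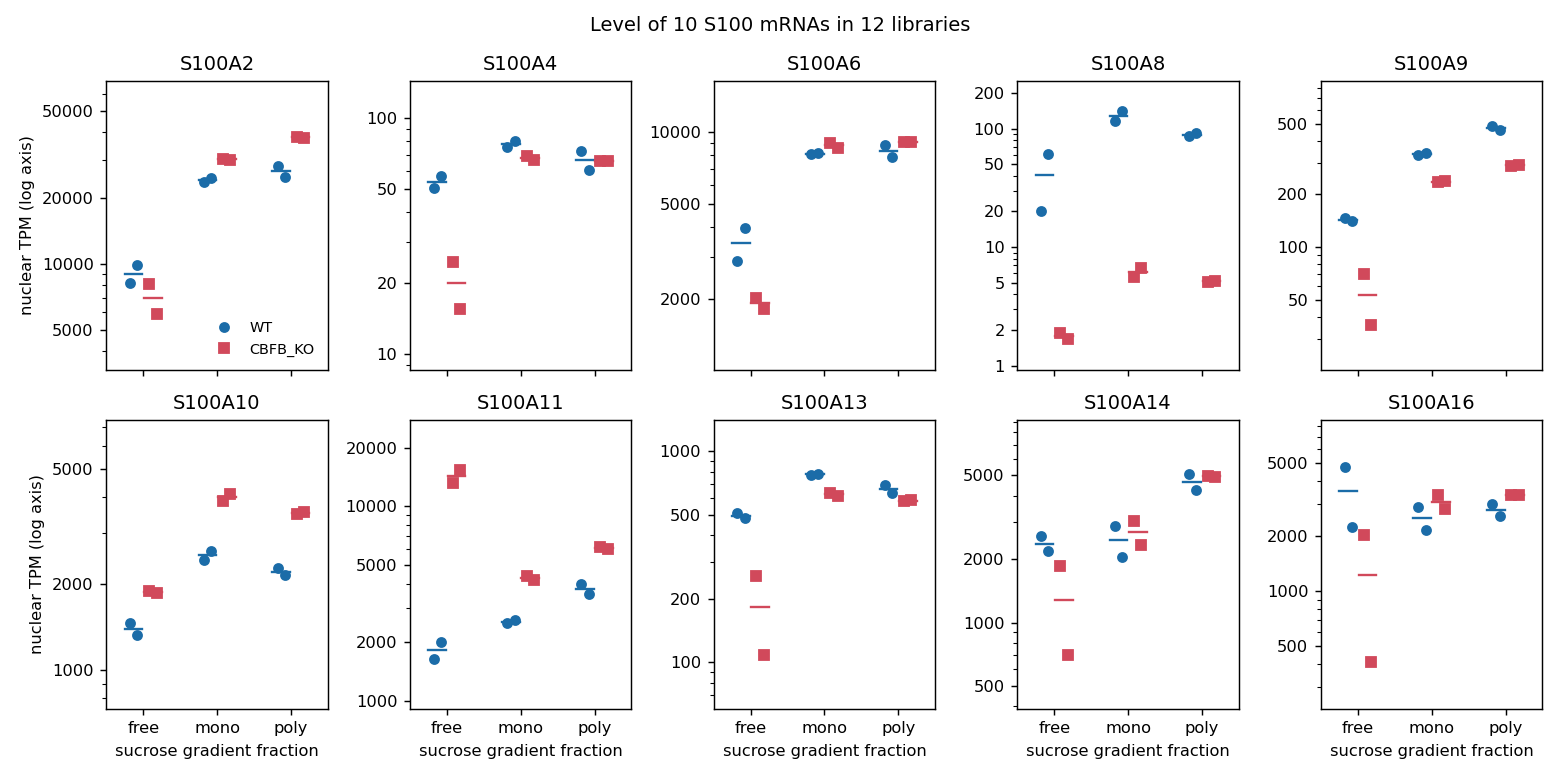
Nuclear TPM of the 10 S100 mRNAs (log axis, its range set per panel) in the free, mono and poly fractions, with 1 point per library, WT as blue circles and CBFB_KO as red squares, and a line at the mean of 2 libraries. S100A8 lies lower in CBFB_KO in all 3 fractions, and S100A11 in CBFB_KO free, at 13127 and 15425, lies above its other 10 libraries.

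The first question was which members differed between CBFB_KO and WT within a fraction, tested with edgeR's quasi-likelihood test on all 12 libraries with Benjamini-Hochberg adjustment over 16275 genes, where a gene was called at an adjusted p under 0.05. S100A8, the member that pairs with S100A9 in calprotectin, was the member called lower in CBFB_KO in every fraction. Its expected counts were 3704 and 4206 in WT mono and 159 and 182 in CBFB_KO mono, and 2076 and 1653 in WT poly against 92 and 102 in CBFB_KO poly. In the free fraction they were 501 and 1232 in WT and 7 and 3 in CBFB_KO. No CBFB_KO library overlapped a WT library of its fraction.

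S100A8 fell by 4.28 ± 0.50 (SE) on the log2 scale in mono, with an adjusted p of 0.00482 by edgeR, and by 3.99 ± 0.49 in poly, with an adjusted p of 0.00654 by edgeR. It was the member called in each of these fractions, where edgeR called 0.117% of all genes lower in mono and 0.166% in poly. In the free fraction S100A8 fell by 5.25 ± 0.59 (adjusted p = 0.000137 by edgeR), but that value rests on 10 counts in CBFB_KO. As a share of pooled nuclear counts, CBFB_KO to WT was 0.0322 in free, with an exact 95% interval of 0.0154 to 0.0594 that covers counting error only. The same ratio was 0.0483 (0.0432 to 0.0539) in mono and 0.0634 (0.0546 to 0.0733) in poly. The size of the decrease moved little when 1 replicate number of a genotype was left out in all 3 fractions, between -4.71 and -3.94 in mono and between -4.01 and -3.93 in poly (log2), whereas the call was lost in both fractions without either CBFB_KO replicate (edgeR adjusted p from 0.166 to 0.352), in mono without WT replicate 2 (0.0659) or with only the mono libraries fitted (0.0501), and in poly when the CBFB_KO poly pair was counted as 1 library (0.25).

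S100A9, the partner of S100A8, was not called in mono or poly. Its nuclear TPM was 331.5 and 342.2 in WT mono against 232.3 and 235.8 in CBFB_KO mono, and 486.5 and 462.5 in WT poly against 289.7 and 292.1 in CBFB_KO poly. The groups did not overlap, but the log2 change was -0.43 ± 0.39 in mono and -0.59 ± 0.39 in poly, with an adjusted p of 1.0 by edgeR in both. The ratio of S100A8 to S100A9 within a library, which no scaling between libraries can move, lay between 0.138 and 0.44 in the 6 WT libraries and between 0.0175 and 0.0461 in the 6 CBFB_KO libraries. Myeloid cells make much of both proteins, so 9 myeloid markers were read beside them. PTPRC, FCGR3B, CSF3R, ELANE and LYZ were at 0 to 0.0205 TPM in every library, and MPO, ITGAM and S100A12 stayed at or below 0.74 TPM. CD14, at 1.26 to 26.9 TPM, was the marker that reached 1 TPM in both libraries of a condition. The summed level of the list was 2.58 to 2.68 TPM in WT mono and 1.52 to 1.66 in CBFB_KO mono, 20.4 to 27.9 in WT poly and 10.3 to 10.8 in CBFB_KO poly, and 6.07 to 6.32 in WT free and 2.16 to 3.22 in CBFB_KO free.

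The other 8 members were not called different between genotypes in mono or poly. S100A10, the annexin A2 partner p11, stood at 2428 and 2600 nuclear TPM in WT mono and 3894 and 4114 in CBFB_KO mono, and at 2265 and 2140 in WT poly and 3492 and 3554 in CBFB_KO poly. S100A11, which binds annexin A1, stood at 2507 and 2599 in WT mono, 4377 and 4175 in CBFB_KO mono, 3970 and 3535 in WT poly, and 6148 and 6044 in CBFB_KO poly. Both genes were higher in CBFB_KO in each library of these fractions, by 0.78 ± 0.37 and 0.79 ± 0.37 on the log2 scale for S100A10 and 0.83 ± 0.36 and 0.82 ± 0.36 for S100A11 in mono and poly, but the adjusted p was 1.0 by edgeR for each. S100A2 was 0.64 ± 0.33 higher in CBFB_KO poly on the log2 scale, without overlap, again with an adjusted p of 1.0 by edgeR. The remaining changes of these 8 members in mono and poly lay between -0.22 and 0.42 (log2).

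**Figure D2:**
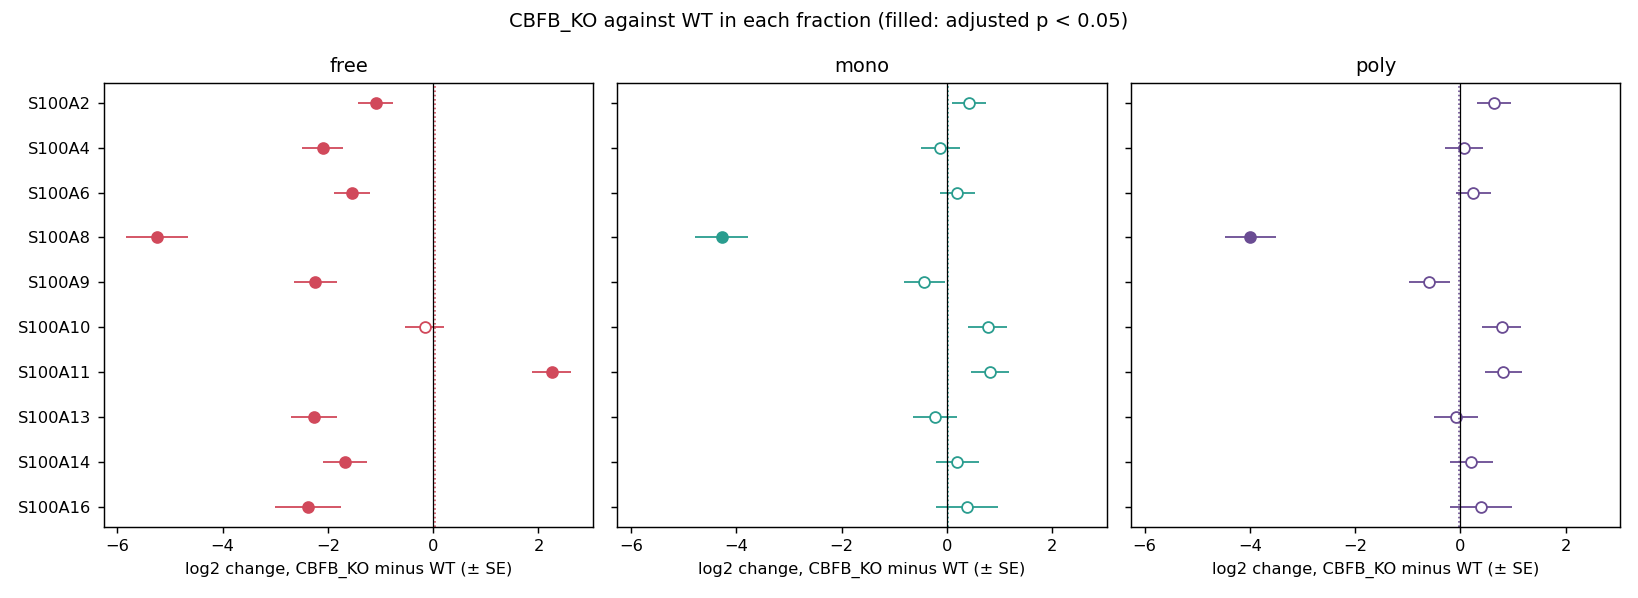
Change between genotypes of each S100 mRNA in the free, mono and poly fractions, as log2 of CBFB_KO over WT with its SE from the edgeR model (n = 2 libraries per condition). Filled points passed the adjusted threshold of 0.05, open points did not, and the dotted line is the median of all 16275 genes. In mono and poly only S100A8 is filled, and in free S100A11 is filled on the right at 2.25.

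The free fraction gave the most calls between genotypes. There 8 members were called lower in CBFB_KO and S100A11 was called higher, where 18.1% of all genes were called lower and 24.2% higher, so calls in this fraction were common. S100A11 had 13127 and 15425 nuclear TPM in CBFB_KO free against 1637 and 2014 in WT free, which put it in places 4 and 10 of all nuclear genes in CBFB_KO free and in places 103 and 92 in WT free. It rose by 2.25 ± 0.37 on the log2 scale, with an adjusted p of 0.00128 by edgeR. The libraries of the 2 genotypes did not overlap, and no other member was called higher.

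The members called lower in CBFB_KO free were S100A2 (-1.09 ± 0.33), S100A4 (-2.10 ± 0.39), S100A6 (-1.54 ± 0.34), S100A8, S100A9 (-2.24 ± 0.41), S100A13 (-2.27 ± 0.44), S100A14 (-1.68 ± 0.42) and S100A16 (-2.38 ± 0.62), all as log2 change ± SE with edgeR adjusted p between 0.000137 and 0.0243. S100A10 was at -0.16 ± 0.37 with an adjusted p of 0.752 by edgeR, while in nuclear TPM it was 1.35 times its WT level. The median of the 10 members was -1.89 against 0.04 for all genes. S100A9 illustrates the level, with 146.5 and 139.4 nuclear TPM in WT free and 69.73 and 36.05 in CBFB_KO free. S100A13 had 509.4 and 483.9 against 257.6 and 108.3 nuclear TPM, again without overlap. For S100A2 the WT values of 8201 and 9856 nuclear TPM and the CBFB_KO values of 8118 and 5903 lay next to each other.

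The free libraries of the 2 genotypes also differed in mitochondrial share, and the part of that share in these free-fraction differences was not tested. With the CBFB_KO poly pair as 1 library S100A2 lost its call (edgeR adjusted p = 0.0582). When only the free libraries were fitted, S100A8 was the member still called (-5.23, adjusted p = 0.0138 by edgeR). Leaving out CBFB_KO replicate 2 removed its free library, the one with the fewest nuclear counts, along with its mono and poly libraries. In that fit, with 1 library per CBFB_KO condition, S100A6, S100A8, S100A9 and S100A11 were at -1.61, -5.25, -1.94 and 1.97 (log2). The calls of the other members were lost. With an offset for the trend of change with transcript length in each library, S100A8, S100A9 and S100A13 were called lower and S100A10 (1.12) and S100A11 (3.59) higher, and S100A2 turned to 0.21 (log2). With library size as the scale and no TMM factor, S100A11 was at 0.47 (edgeR adjusted p = 0.282). The median of all genes then shifted by -1.61, and S100A11 stayed above that median.

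Ratios between members within a library do not depend on the scaling between libraries. As ratios of TPM they do follow the length that RSEM assigned to each gene. That was 594 bases for S100A11 throughout, and for S100A10 687.8 to 731.1 in WT free and 726.3 to 784.7 in CBFB_KO free. S100A11 to S100A10, both annexin partners, was 1.12 and 1.52 in WT free and between 0.999 and 1.75 in the WT mono and poly libraries. In CBFB_KO it was 6.94 and 8.32 in free and between 1.01 and 1.76 in mono and poly. The mono and poly ranges of the genotypes overlapped, and the CBFB_KO free pair stood apart. S100A11 to S100A2 followed, with 0.2 and 0.204 in WT free, 1.62 and 2.61 in CBFB_KO free, and 0.105 to 0.161 in the 8 mono and poly libraries. AL450992.1, an antisense gene that overlaps S100A11 outside its exons, had 0 counts in all libraries, and the 6 S100A11 pseudogenes in the tables had 0 counts too.

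**Figure D3:**
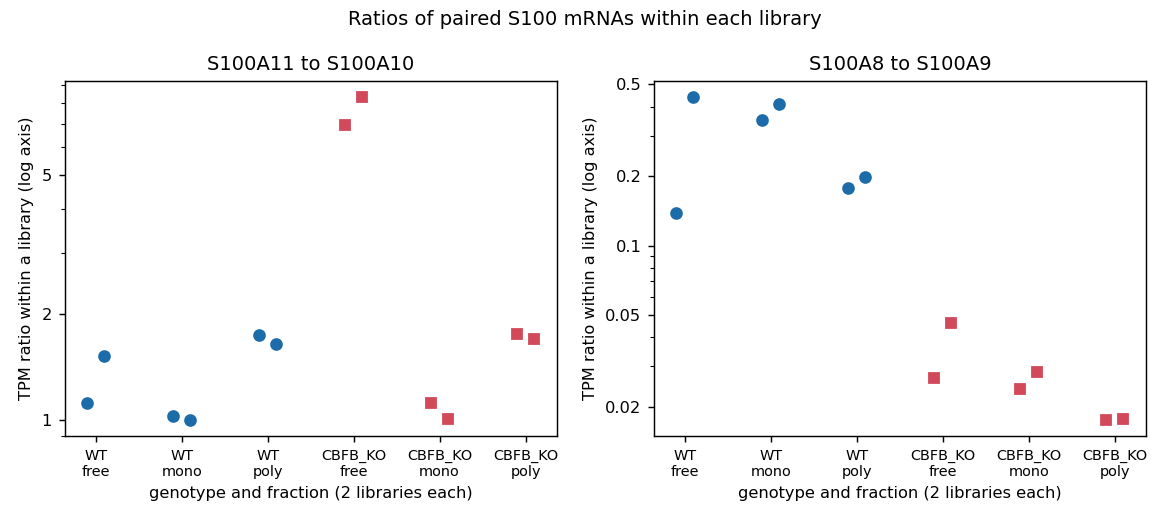
Ratio of nuclear TPM of S100A11 to S100A10 (left) and of S100A8 to S100A9 (right) within each of 12 libraries (log axes, 1 point per library, WT blue circles, CBFB_KO red squares). The CBFB_KO free pair lies at 6.94 and 8.32 on the left, and on the right all 6 CBFB_KO libraries lie at or below 0.0461.

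The next question was how the members divided between polyribosomes and the other fractions. In WT, S100A2 and S100A9 were called higher in poly than in free, by 1.02 ± 0.33 and 1.25 ± 0.40 on the log2 scale (adjusted p = 0.0487 and 0.0438 by edgeR), where 14% of all genes were called higher. S100A6 was at 0.85 ± 0.33 (adjusted p = 0.0873) and S100A16 at -0.87 ± 0.60 (adjusted p = 0.313 by edgeR). The median of the members was 0.54 and that of all genes 0.08. Both calls lie close to the threshold and were lost when either replicate of either genotype was left out (edgeR adjusted p from 0.0555 to 0.387) or the CBFB_KO poly pair was counted as 1 library (0.108 for S100A2 and 0.0991 for S100A9). Without a TMM factor S100A9 was at 1.79 with an adjusted p of 0.0505 by edgeR.

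In CBFB_KO, 9 members were called higher in poly than in free, where 14.6% of all genes were. S100A9 rose most, by 2.90 ± 0.42, followed by S100A2 (2.75 ± 0.35), S100A6 (2.64 ± 0.35) and S100A14 (2.37 ± 0.43), with edgeR adjusted p from 0.000336 to 0.0024. S100A13, S100A8, S100A4, S100A16 and S100A10 rose by 2.06, 1.99, 1.95, 1.90 and 1.20 on the log2 scale. S100A11 was the exception at -0.84 ± 0.36, with an adjusted p of 0.0919 by edgeR. In nuclear TPM the same pattern held, with 0.427 for the ratio of poly to free of S100A11 and 1.88 to 5.5 for the other members. With the CBFB_KO poly pair as 1 library 6 calls were left, and those of S100A8, S100A10 and S100A16 were lost (edgeR adjusted p = 0.0794, 0.133 and 0.106). Without CBFB_KO replicate 2, the calls of S100A2, S100A6 and S100A9 were left.

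The difference between the genotypes in poly to free was tested as an interaction. S100A2 (1.73 ± 0.47), S100A4 (2.17 ± 0.53), S100A6 (1.79 ± 0.47), S100A13 (2.19 ± 0.60), S100A14 (1.88 ± 0.59) and S100A16 (2.77 ± 0.86) were called higher in CBFB_KO (log2 ± SE, edgeR adjusted p between 0.0185 and 0.046), where 4.10% of all genes were. S100A9 was at 1.65 ± 0.56 (adjusted p = 0.0597 by edgeR) and S100A11 at -1.43 ± 0.50 (adjusted p = 0.0664 by edgeR). Between genotypes these 8 members lay between -0.59 and 0.82 in poly and between -2.38 and 2.25 in free (log2). No member stayed called without WT replicate 1, without WT replicate 2, without CBFB_KO replicate 2 or with the CBFB_KO poly pair as 1 library, and with the length offset S100A11 alone was called (-2.85, adjusted p = 0.00473 by edgeR).

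**Figure D4:**
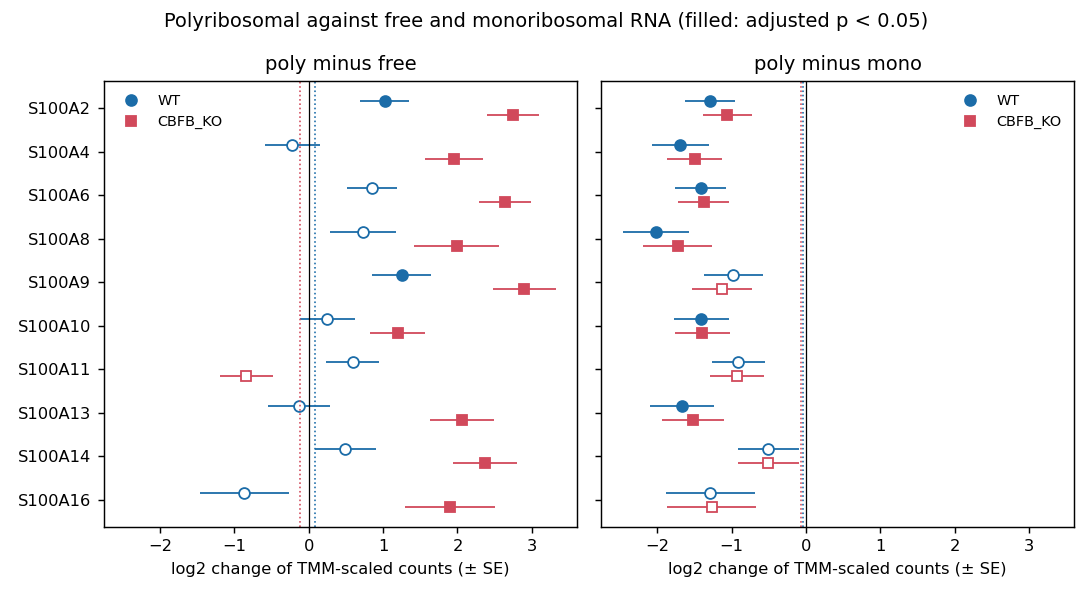
Change of each S100 mRNA from free to poly (left) and from mono to poly (right) as log2 with its SE from the edgeR model, for WT (blue circles) and CBFB_KO (red squares), n = 2 libraries per condition. Filled points passed the adjusted threshold of 0.05, and dotted lines mark the median of all genes. In CBFB_KO all members but S100A11 lie to the right on the left panel, and on the right panel all 20 values lie below 0.

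Between poly and mono the same 6 members were called in both genotypes. On the TMM scale all 10 members were lower in poly than in mono in WT and in CBFB_KO, whereas in nuclear TPM 6 of the 10 (S100A2, S100A6, S100A9, S100A11, S100A14 and S100A16) were higher in poly in each genotype, with ratios of poly to mono from 0.695 to 1.89 in WT and from 0.835 to 1.83 in CBFB_KO. S100A2, S100A4, S100A6, S100A8, S100A10 and S100A13 were called lower in WT, by 1.29 to 2.02 on the log2 scale (edgeR adjusted p from 0.0105 to 0.0217), where 9.68% of all genes were called lower. The same 6 members were called lower in CBFB_KO, from -1.73 for S100A8 to -1.06 for S100A2 (edgeR adjusted p from 0.0195 to 0.0498), where 8.66% of all genes were. The median of the members was -1.35 in WT and -1.32 in CBFB_KO, against -0.04 and -0.07 for all genes.

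S100A14 changed least from mono to poly, at -0.51 ± 0.41 in each genotype (edgeR adjusted p = 0.405 and 0.428). Its transcript is among the longest of the members, with a mean length of 1017 to 1024 bases in the deposited tables against 522.3 to 535.9 for S100A8. S100A16 was longer still, at 1205 to 1209 bases, and changed by -1.29 ± 0.60 in WT and -1.27 ± 0.60 in CBFB_KO. Its change was thus close to that of the much shorter S100A2 in WT, at -1.29. With the length offset no member was called in either genotype, and the member median moved to -0.25 and -0.19. The calls were also lost with library size as the scale, where the median of all genes shifted by 0.85 in WT and 0.89 in CBFB_KO, and in WT they were lost without either WT replicate. In CBFB_KO all 6 calls were lost without either CBFB_KO replicate or with the poly pair as 1 library, and 1 or 2 were left without a WT replicate. With the pair as 1 library, S100A2 and S100A10 were also lost in WT (edgeR adjusted p = 0.0597 and 0.0602). A difference between the genotypes in this ratio was not detectable: no member and 0% of all genes were called by edgeR, 164 of 16275 genes had an unadjusted p under 0.05, DESeq2 called 0 as well, and edgeR without the low-count filter called 16 genes, none of them a member. The interaction values of the members lay between -0.16 and 0.29 (log2), with SE from 0.47 to 0.84.

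RSEM's mean transcript length, which follows the mix of isoforms it assigned, separated fractions for S100A10. It was 645 to 655 bases in the mono libraries of both genotypes and 726.5 to 735.9 in the poly libraries. The free libraries spanned 687.8 to 784.7 bases. S100A9 and S100A11 each had 1 length in all libraries, 577 and 594 bases. S100A2, at 583.9 to 596 in mono and 597.5 to 605.4 in poly, moved by far less than S100A10. S100A13 shares exon sequence with S100A1 on the opposite strand. S100A1 counts summed to 544.44 over all libraries, and S100A13 had between 300 and 33542 in each library. AL162258.1, a processed transcript on the same strand, also shares exon sequence with S100A13. It was not among the genes counted, and strand would not separate its reads. S100A6 shares exon sequence with the antisense gene BX470102.1, which summed to 123 counts. Whether the counting used strand is not given in the sources used here, so such reads cannot be told apart.

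By the shape of its 6 condition means, centred on their own mean in log2 TMM CPM, S100A2 was most like KLK8, a serine protease of keratinised epithelium, at a root mean square distance of 0.14, among 5978 genes with a mean of at least 10 CPM. SLPI, a secreted protease inhibitor, followed at 0.163, then EDF1 (0.18), a transcriptional coactivator, CCDC107 (0.186) and LAMTOR2 (0.191), a subunit of the lysosomal Ragulator complex. S100A6 was the closest member, in place 7 of all genes at 0.208. S100A14, S100A9, S100A4, S100A10 and S100A13 were at 0.488 to 0.574 and S100A16 at 0.656, whereas S100A11 was at 1.39 and S100A8 at 1.85. The distances rest on 6 means of 2 libraries each and are a description.

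Of 11 other S100 family entries, S100A7A, S100B and S100G were at 0 in every library, S100Z reached 0.0102 TPM, and 6 reached 1 TPM in some library. S100P, a placental member also made by epithelia, was the most abundant of them, at 142 and 149 nuclear TPM in WT mono, 90.5 and 84.9 in CBFB_KO mono, 51.7 and 58.2 in WT free and 14.2 and 15.0 in CBFB_KO free. It was called lower in CBFB_KO free (-1.99 ± 0.44, adjusted p = 0.00626 by edgeR) and higher in CBFB_KO poly than in CBFB_KO free (2.10 ± 0.44). S100A3, a cysteine-rich member of the hair cuticle, stood at 12.6 and 11.9 nuclear TPM in WT poly and 59.1 and 40.5 in WT free, and was called lower in WT poly than in free (-2.63 ± 0.50, adjusted p = 0.00501 by edgeR). It was also called lower in poly than in mono, in WT (-2.20 ± 0.49) and in CBFB_KO (-2.15 ± 0.49). S100P was too in CBFB_KO (-1.37 ± 0.43), close to the threshold (adjusted p = 0.0487 by edgeR). S100A7, psoriasin, had 42 and 28 counts in WT free and 0 in both CBFB_KO free libraries, at least 4.18-fold lower as a share of nuclear counts with a floor of 3 counts over the group, and it was called lower by edgeR (adjusted p = 0.00932). It was also called higher in CBFB_KO poly, at 1.46 and 1.35 TPM, than in CBFB_KO free. S100A1, S100A5 and the S100P-binding protein gene S100PBP, which did not exceed 3.26, 1.1 and 6.98 TPM, were called in no comparison, and no gene of this list was called between genotypes in mono or poly.

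The proteins that S100 proteins bind were read from a list of 30 genes, of which 29 are in the tables and 26 were tested. The list holds annexins, receptors and other known binding proteins. In WT, 10 were called higher and 1 lower in poly than in free (14% and 7.99% of all genes), led by ANXA4 (2.83 ± 0.36), ANXA5 (2.66 ± 0.39) and MYH9 (2.25 ± 0.49, the non-muscle myosin that S100A4 binds), while AGER, the receptor for several S100 proteins, was lower (-3.36 ± 0.74). Against mono, 10 were called higher in WT poly and 10 in CBFB_KO poly (11% and 8.20% of all genes) and none lower. Calls under the alternative fits were read for the members only, and these CBFB_KO calls rest on the nearly identical poly pair. ANXA2, the partner of S100A10, stood at 323 and 291 nuclear TPM in WT mono and 2901 and 3204 in WT poly (1.92 ± 0.39, adjusted p = 0.00707 by edgeR), and at 332 and 268 in CBFB_KO mono and 2987 and 2975 in CBFB_KO poly (2.00 ± 0.39).

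In CBFB_KO free, 15 of these genes were called higher than in WT free and PLAUR, the urokinase receptor, lower (-1.92 ± 0.60), where 24.2% of all genes were called higher and 18.1% lower. ALCAM (3.93 ± 0.93), MYH9 (3.58 ± 0.52) and MDM2 (2.60 ± 0.56) led the rise. ANXA1, the partner of S100A11, was at 7.88 and 10.8 nuclear TPM in WT free and 86.9 and 95.7 in CBFB_KO free (2.55 ± 0.52, adjusted p = 0.00416 by edgeR). That was the direction of S100A11, the 1 member of 10 that rose, and of 21 of the 26 partner genes tested. The median of all genes was 0.04 on the log2 scale and that of the partner genes 1.38. ANXA2 was at -0.70 ± 0.38 (adjusted p = 0.153 by edgeR), like S100A10 without a call. These values rest on the CBFB_KO free libraries with the high mitochondrial share, and its part in them was not tested. In mono and poly no partner gene was called between genotypes by edgeR, with 0 and 3 of 26 at an unadjusted p under 0.05. From free to poly in CBFB_KO, 3 were called higher (ANXA2, ANXA5 and ANXA4), where 14.6% of all genes were. Another 8 were called lower, among them AGER (-2.57 ± 0.72) and MYH9 (-1.98 ± 0.49), where 16.7% of all genes were. In the interaction of poly to free, 8 were called lower in CBFB_KO, where 14.3% of all genes were, led by ALCAM (-4.43 ± 1.23), MYH9 (-4.22 ± 0.69) and MCAM (-2.71 ± 0.76), with ANXA1 at -2.28 ± 0.70 and ANXA2 at 0.80 ± 0.53.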

How the data were processed

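The study sequenced RNA of sucrose gradient fractions in 12 libraries. The labels name an mRNA kit for them, whereas the methods describe rRNA removal for RNA sequencing, and which one applied was not settled here. Per the labels, reads were processed with Trimmomatic, STAR and RSEM on hg19, and versions and annotation release are not given in the sources used here. The authors deposited, for each library, expected counts per gene, RSEM's unnormalized estimate of reads. They also deposited TPM, a length-corrected level with 1 sum for every library, and FPKM, corrected for length and library total, which the report does not print.

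Gene symbols matched 49995 of 56632 identifiers. Members, lists and tests were chosen with earlier results of these data known. Expected counts were rounded and fitted with edgeR 4.0.16 (limma 3.58.1, R 4.3.3) by its quasi-likelihood test with TMM factors and filterByExpr on 6 conditions, over all 12 libraries and 16275 genes, with Benjamini-Hochberg adjustment at 0.05. All 10 members passed the filter. DESeq2 1.42.0, other scalings, no filter, a replicate block, a length offset, the CBFB_KO poly pair as 1 library, and leaving out each replicate number of a genotype in all 3 fractions were alternatives, and the fits were tested on simulated data. At these depths 3 counts correspond to between 0.047 and 0.0731 CPM, and intervals cover counting error only. The genes named are the 10 members, S100 family entries that reached 1 TPM, at most 3 partner genes called per direction with ANXA1 and ANXA2, CBFB, and the 5 genes nearest to S100A2 in pattern. The value of 1 partner gene is not reported here. Promoters came from RefSeq and transcripts from GENCODE, both on GRCh38. Tables were read with Python 3.11.15, numpy 2.4.6, pandas 2.3.3 and scipy 1.17.1, and figures drawn with matplotlib 3.10.9.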

Additional observations from a re-analysis of the deposited data

Results flagged for a closer look

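The change from free to poly differed between CBFB_KO and WT by the edgeR test of the interaction for 6 members, higher in CBFB_KO by 1.73 for S100A2, 2.17 for S100A4, 1.79 for S100A6, 2.19 for S100A13, 1.88 for S100A14 and 2.77 for S100A16 (log2). The CBFB_KO free libraries that enter these values also held 71.56% and 87.22% mitochondrially encoded counts, and the part of that in the differences was not tested. With the length offset none of these 6 was called.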

How the results depend on the processing

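Over 13 alternatives, S100A8 stayed called lower in CBFB_KO free in all 13, and S100A2, S100A6 and S100A9 stayed called higher in CBFB_KO poly than free in all 13. Of 40 calls on members, 26 kept their direction and call with library size as the scale, which shifts the all-gene median by up to 2.17. With the replicate block within genotype 35 did. All 40 did with DESeq2, and all 40 did without mitochondrially encoded genes. Fewer did with the length offset (14, with 2 reversed), with the CBFB_KO poly pair as 1 library (19), with only the conditions compared (24), without the filter (30), and without WT replicate 1 (17), WT replicate 2 (19), CBFB_KO replicate 1 (25) or CBFB_KO replicate 2 (13). The causes of the changes given here were not tested.

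The number of members called from WT free to poly was 2, and 0 without the filter, with the block within genotype, with the CBFB_KO poly pair as 1 library and with only the conditions compared, 5 with the length offset, and 0 without any replicate. From WT mono to poly it was 6, and 0 by library size and with the length offset, and 0 to 6 without a replicate. From CBFB_KO free to poly it was 9, and 3 to 9 without a replicate. From CBFB_KO mono to poly it was 6, and 0 by library size, with the pair as 1 library and with the length offset, 3 without the filter, 10 with only the conditions compared, and 0 to 2 without a replicate. Between genotypes it was 9 in free, and 5 with the length offset, 1 with only the conditions compared and 4 to 8 without a replicate. It was 1 in mono, and 0 with only the conditions compared and 0 to 1 without a replicate. It was 1 in poly, and 0 with the pair as 1 library and 0 to 1 without a replicate. For the interaction of poly to free it was 6, and 0 with the pair as 1 library, 1 with the length offset, 3 with only the conditions compared and 0 to 4 without a replicate.

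The replicate block gave 1 call from WT free to poly in place of 2 and 38 of 40 calls were kept. Same-numbered libraries correlated from -0.13 to 0.24 in their deviations, not above 0.1 in every pair, so the numbers were not taken to pair the samples. S100A2 turned to 0.2 from CBFB_KO mono to poly and to 0.21 between genotypes in free with the length offset. S100A11 turned to 1.48 from CBFB_KO free to poly and to 0.36 in the interaction by library size, where all genes shifted by 2.17 and 1.64. The 2 replicates per condition and the 5247853 nuclear counts of CBFB_KO free replicate 2 limit what could be called.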

Other observations

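The nearest genes in pattern were also read for S100A11, which was chosen for this after its values were seen. By the distance used for S100A2, the nearest named genes were NAA50 (0.333), ARHGDIB (0.387), PNKD (0.41) and POLR3G (0.413), and the gene ENSG00000255594 was at 0.294. S100A10 was the nearest member, at 0.884.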
